A study of Homo sapiens with 6 samples.

Results

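The promoters of 4 genes of the centrosome and of dynein-based transport, CEP170, SDCCAG8, DYNC1LI2 and ACTR10, were bound by FLAG-tagged ZNF335 in a T cell line, and at each promoter the binding took the form of a pair of neighbouring peaks. CEP170 and SDCCAG8 are divergent neighbours on chromosome 1 and share a promoter region, so the 4 genes stand for 3 promoters. The members were all peaks of the wild-type (WT) and bloto lists that overlapped 3 promoter intervals on hg19, and these came to 8 peaks: 6 of the 634 WT peaks and 2 of the 174 bloto peaks. The control list held 1 peak in all, and 0 control peaks lay in the intervals. The promoters were chosen by their WT peak calls, since each held 2 WT peaks, so the presence of a pair is a description and not a finding.

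The cells were Jurkat T-REx, a human leukaemic T cell line in which an introduced gene is held off until doxycycline is added. The WT line expressed 3xFLAG WT ZNF335, the bloto line 3xFLAG bloto (R1092W) ZNF335, and the control line no tagged protein; doxycycline was given overnight. Each line was a clone, each was profiled with anti-FLAG ChIP (1 library) beside an input, and the series has 6 samples, of which the 3 ChIP samples have peak lists. With 1 library of 1 clone per form there is no replicate error, no test between forms is possible, and a difference between the lists cannot be told apart from a difference between clones, tagged protein levels or immunoprecipitations.

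ZNF335 is a C2H2 zinc finger transcription factor that binds near gene starts, and inherited mutations in it cause microcephaly. The centrosome is the main microtubule organising centre of animal cells. CEP170 is a protein of the subdistal appendages of the mother centriole, where microtubules are anchored, and SDCCAG8 is a centrosomal and ciliary protein whose loss causes retinal and renal ciliopathy. Cytoplasmic dynein is the motor that carries cargo towards the microtubule minus ends gathered at the centrosome. DYNC1LI2 encodes a light intermediate chain of this motor, the subunit that links it to cargo adaptors. ACTR10, also called Arp11, is an actin-related subunit at the pointed end of dynactin, the complex that dynein needs for processive movement.

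The sequences just upstream of the gene starts are shown because they are the regulatory DNA of these promoters. The table of RefSeq promoter windows used here was matched for 3 of the 4 genes: CEP170, SDCCAG8 and DYNC1LI2. The windows are on GRCh38.p14, whereas the peaks are on hg19, so the position of a peak within a window was not determined. Each line gives the 250 bases before the annotated start, 5′ to 3′ on the strand of the gene. Capitals mark matches on either strand to ACTACANNTCCC and to ACTGCGC. The first was the longest word, with up to 2 open letters (N), that the CEP170 window held and the SDCCAG8 window held 2 times; it matches the core of the element bound by ZNF143, another zinc finger protein. The second was found in all 3 windows. The windows are chr1:243255282-243255531 on the minus strand for CEP170, chr1:243255791-243256040 on the plus strand for SDCCAG8, and chr16:66751610-66751859 on the minus strand for DYNC1LI2.
CEP170: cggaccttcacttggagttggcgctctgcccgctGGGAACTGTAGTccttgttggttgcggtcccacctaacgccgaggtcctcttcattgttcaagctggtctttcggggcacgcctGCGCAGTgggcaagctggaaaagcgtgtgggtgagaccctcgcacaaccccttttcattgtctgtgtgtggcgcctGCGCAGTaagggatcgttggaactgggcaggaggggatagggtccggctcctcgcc
SDCCAG8: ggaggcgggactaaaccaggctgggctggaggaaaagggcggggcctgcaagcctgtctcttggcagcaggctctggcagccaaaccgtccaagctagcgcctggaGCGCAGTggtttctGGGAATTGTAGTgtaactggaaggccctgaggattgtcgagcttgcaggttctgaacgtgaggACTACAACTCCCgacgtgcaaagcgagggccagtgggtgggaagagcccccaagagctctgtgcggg
DYNC1LI2: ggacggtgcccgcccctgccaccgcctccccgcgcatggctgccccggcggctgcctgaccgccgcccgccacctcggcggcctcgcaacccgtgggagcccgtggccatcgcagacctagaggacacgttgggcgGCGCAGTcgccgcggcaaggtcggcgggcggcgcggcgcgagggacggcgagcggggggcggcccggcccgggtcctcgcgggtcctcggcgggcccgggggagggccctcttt

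The windows on either side of the CEP170/SDCCAG8 region shared more words of 8 letters with each other than with DYNC1LI2. They shared 5 such words on either strand, and each shared 2 with DYNC1LI2. Overlapping words were counted separately, and other pairs of windows were not compared. The 2 annotated starts lay 760 bp apart, with the genes pointing away from each other. GC content was 60.8% in the CEP170 window and 61.2% in the SDCCAG8 window, with 16 and 11 CpG dinucleotides. The DYNC1LI2 window had 81.2% GC and 40 CpG. Over all 35116 windows of the table the median was 58% GC and 11 CpG, and 2.16% of windows had at least as many CpG as DYNC1LI2.

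The ZNF143-type word ACTACANNTCCC was present on both sides of the divergent promoter, as the way it was picked required. The CEP170 window held 1 match, 205 to 216 bases before the start, and the SDCCAG8 window 2 matches, at 119 to 130 and at 56 to 67 bases before the start. DYNC1LI2 held 0 matches, and 1.67% of all windows held at least 1. CEP170 also carried the 12-letter word CGCCTGCGCAGT 2 times, which 0.222% of windows held at least once, and both copies contain a copy of ACTGCGC read on the other strand. ACTGCGC itself, with 2 copies in the CEP170 window and 1 each in the SDCCAG8 and DYNC1LI2 windows, occurred in 3.57% of all windows. A further word, CCCTCGC, was in all 3 windows and in 7.80% of all windows. These words were picked after the sequences had been seen, and a match is not evidence of a bound site.

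DYNC1LI2 had the strongest binding and the most unequal pair. Its strong WT peak, chr16:66785257-66785951, had a fold enrichment of 15.96 over the local background, which ranked 41st among the 634 WT peaks. It had 61 ChIP reads at the summit (exact Poisson 95% interval 46.7 to 78.4, counting error only). Fold is the authors' own value for each peak, relative to the input background of the same list, and the reads were recovered from the fold and p-value columns. The weak WT peak, chr16:66784869-66785099, had a fold of 4.78, rank 562, and 15 reads (8.40 to 24.7). The intervals of the 2 read counts do not overlap, and the strong peak had 4.07 times the reads of the weak one. Their summits, at 66785654 and 66784997, lay 657 bp apart and the peak edges 157 bp apart. Because DYNC1LI2 is read on the minus strand, the weak peak lay on the side towards which the gene is transcribed.

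The bloto list held 1 peak at DYNC1LI2, and it fell on the strong WT peak. It spanned chr16:66785524-66785754, entirely inside the WT peak, with a fold of 11.8 over its own background (35th of 174) and 35 reads (24.4 to 48.7). The bloto summit, 66785659, was 5 bp from that of WT, and 127 of the 166 WT peaks with a bloto peak showed a larger displacement. The bloto peak was narrow: 231 bp against 695 bp in WT, or 33.2% of the WT width, where the median over the 166 sites was 56.8%. Only 15 of those sites had a smaller relative width. No bloto peak overlapped the weak WT peak.

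ACTR10 showed the same arrangement with a smaller contrast in fold. The strong WT peak, chr14:58666477-58666919, had a fold of 9.28 (rank 171) and 53 reads (39.7 to 69.3). That read interval overlaps the one of the strong DYNC1LI2 peak, so reads did not separate the strong peaks of these promoters. The weak peak, chr14:58667090-58667370, had a fold of 5.97 (rank 412) and 17 reads (9.90 to 27.2). The read counts differed 3.12 times and their intervals do not overlap, whereas the folds differed only 1.55 times. The local background under the strong peak was 4.67 reads, against 1.88 under the weak one, and the median over all WT peaks was 2.73. The summits, at 58666685 and 58667181, lay 496 bp apart, and the edges 170 bp.

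At ACTR10, too, the single bloto peak overlapped the strong WT peak. It spanned chr14:58666630-58666913 with a fold of 8.08 (99th of 174) and 26 reads (17.0 to 38.1). Its summit, 58666745, was displaced by 60 bp from the WT summit, towards the weak WT peak, and 27 of the 166 shared sites were displaced further. The bloto peak was 284 bp wide, 64.1% of the WT width of 443 bp. It began inside the WT peak and ended within it, so the weak WT peak was left without a bloto peak.

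CEP170/SDCCAG8 differed from both in having a pair of weak, nearly equal peaks. The WT peak at chr1:243418600-243419119 had a fold of 6.04 (rank 396) and 20 reads (12.2 to 30.9). Its neighbour at chr1:243419198-243419361 had a fold of 6.30 (rank 365) and 18 reads (10.7 to 28.4). The intervals of the 2 read counts overlap, and the order of the peaks depended on the measure, since fold put the second first while reads and −log10 p (11.2 against 10.7) put the first ahead. In the annotated gene order the first peak is the one nearer to the CEP170 side of the pair and the second the one nearer to SDCCAG8. No bloto peak overlapped either of them, and the nearest bloto peak on chromosome 1 was 11754 kb away.

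The CEP170/SDCCAG8 peaks were close together and one of them was wide for its height. Their summits, at 243419006 and 243419298, lay 292 bp apart and the edges 78 bp. The first peak was 520 bp wide, and only 2 of the 149 WT peaks with 15 to 20 reads, itself included, were at least that wide; the median width of those 149 was 189 bp and the widest was 579 bp. Its summit lay 78.1% of the way into the peak, on the side of the second peak. The second peak was 164 bp wide, close to the narrowest width in the list, 146 bp. The nearest other WT peak was 3251 kb from this pair, 729 kb from the DYNC1LI2 pair and 6304 kb from the ACTR10 pair.

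**Figure D1:**
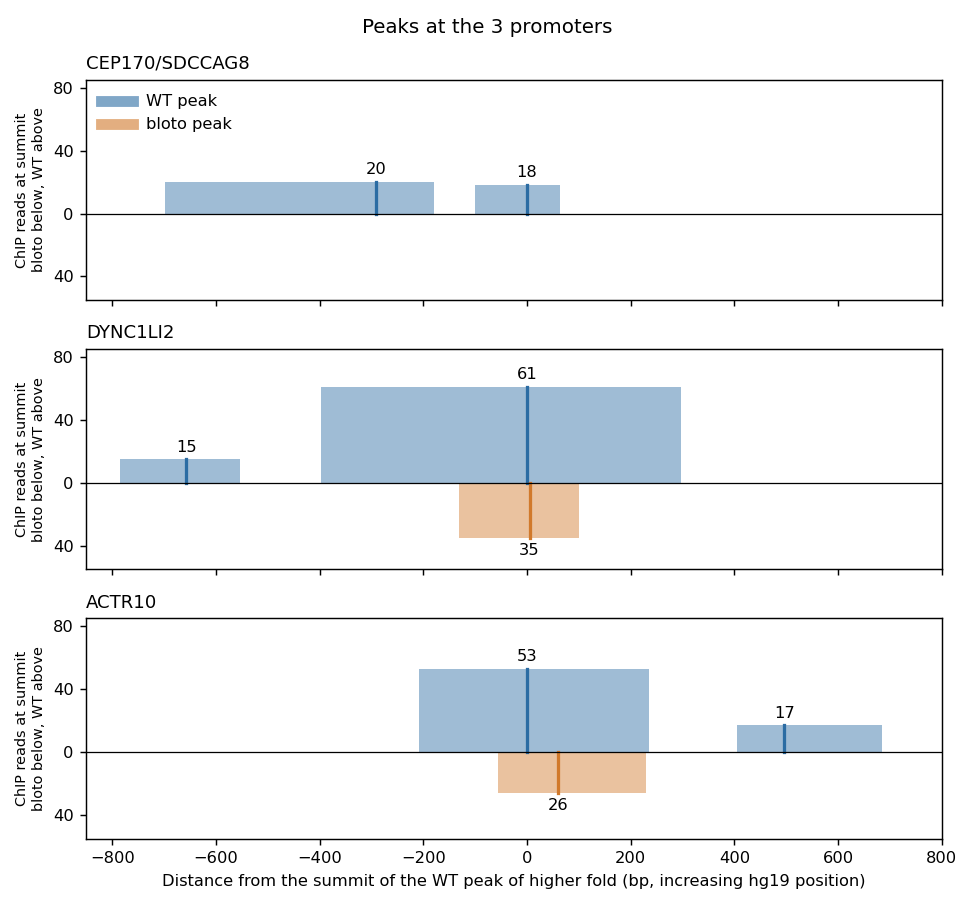
Peaks at the 3 promoters, plotted by distance in bp from the summit of the WT peak of higher fold, with position on hg19 increasing to the right. Boxes span the called peaks, WT upwards and bloto downwards, box height and the printed number are ChIP reads at the summit, and vertical lines are summits. The bloto boxes of 35 and 26 reads lie under the WT peaks of 61 and 53 reads, and CEP170/SDCCAG8, with 20 and 18 WT reads, has none.

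In all, 2 of the 6 WT peaks had a bloto peak, where 26.2% of all 634 WT peaks did, so the count by itself does not set these promoters apart. With reciprocal overlap of at least 50% the count was 1, the ACTR10 peak, and the share of all WT peaks 16.6%. Which peaks kept a counterpart followed their height. The 2 with a bloto peak had 53 and 61 reads, and of the 29 WT peaks with 53 to 61 reads, 28 had a bloto peak. The exception, chr7:92219480-92219811, had 57 reads but a fold of 2.37 over a high local background of 23.4 reads. The 4 member peaks without a bloto peak had 15 to 20 reads. Of the 149 WT peaks in that range 1 had a bloto peak, chr12:14923953-14924195 with 20 reads. The member peaks therefore fell where WT peaks of the same height usually fell in this pair of lists.

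**Figure D2:**
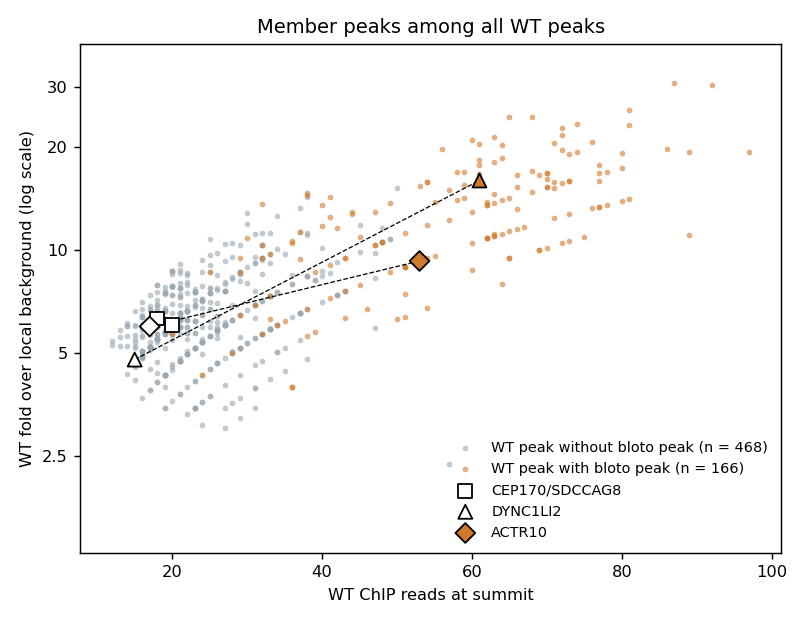
Fold over local background (log scale) against ChIP reads at the summit for all 634 WT peaks, with the member peaks as large symbols, filled where a bloto peak overlaps and open where none does, and dashed lines joining the peaks of a promoter. The filled DYNC1LI2 and ACTR10 symbols, at 61 and 53 reads, lie among WT peaks with a bloto peak, and the 4 open symbols lie at 15 to 20 reads.

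Pairs like these were a minor but regular feature of WT binding. With summits at most 1000 bp apart, the WT list held 45 neighbouring pairs, made of 89 peaks, or 14.04% of the list (exact 95% interval 11.4% to 17.0%), with 1 peak shared by 2 pairs. The interval assumes independent peaks, whereas the peaks of a pair enter together, so it is too narrow. The summits within a pair lay 260 to 827 bp apart, with a median of 500 bp. CEP170/SDCCAG8 was the second closest of the 45, ACTR10 stood 22nd and DYNC1LI2 36th. By the ratio of the folds within a pair, DYNC1LI2, at 3.34, was the 7th most unequal, ACTR10 the 31st and CEP170/SDCCAG8, at 1.04, the 44th; the median over the 45 pairs was 1.91.

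In none of the 45 pairs did both WT peaks have a bloto peak. In 26 pairs 1 peak had one, and in 19, CEP170/SDCCAG8 among them, neither did. The marked peak was the one of higher fold in 24 of the 26 pairs (92.3%, exact 95% interval 74.9% to 99.1%), DYNC1LI2 and ACTR10 included, and the one with more reads in 26 of 26. A marked peak with 72 reads belongs to more than 1 of these pairs, so they are not all independent, as the interval assumes. In the 24 pairs the peak of higher fold had 36 to 87 reads (median 63.5) and its partner 14 to 25 (median 18). Of all 149 WT peaks with 15 to 20 reads, 1 had a bloto peak, so peaks of that height seldom had one wherever they lay. The counts of pairs therefore largely restate peak height and are not separate evidence about pairs. In the 19 pairs without a bloto peak the taller peak had 19 to 47 reads, with a median of 30, so the ranges overlap between 36 and 47 reads. The 20 reads of the taller CEP170/SDCCAG8 peak lay near the lower end of that group.

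**Figure D3:**
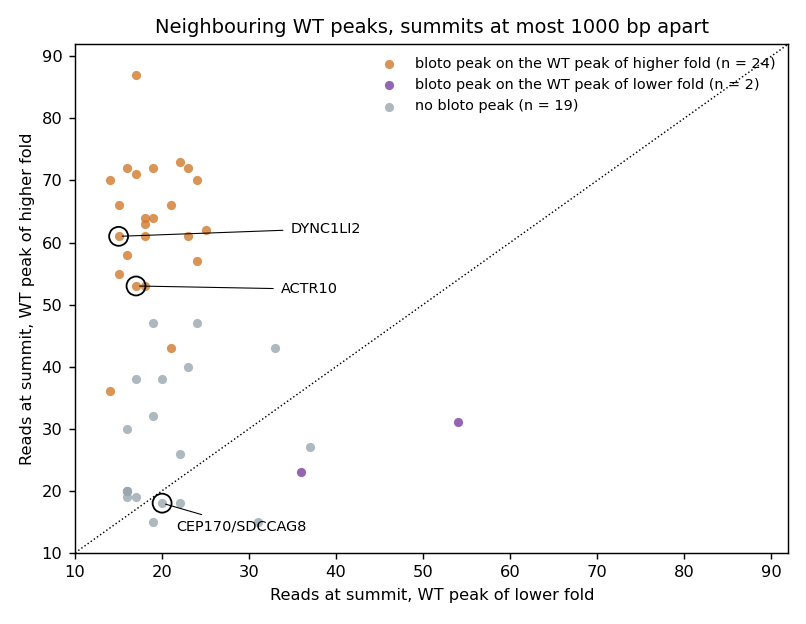
ChIP reads at the summit of the WT peak of higher fold against those of the WT peak of lower fold in the 45 neighbouring WT pairs, with colour giving which peak of the pair has a bloto peak and the member promoters circled. DYNC1LI2 (61 and 15 reads) and ACTR10 (53 and 17) lie among the 24 pairs marked on the peak of higher fold, and CEP170/SDCCAG8 (18 and 20) among the 19 without a bloto peak; the dotted line marks equal reads.

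Pairs of the same spacing did not all look alike. Those nearest in spacing to DYNC1LI2 were chr1:19577812-19578949, at 661 bp with 66 and 15 reads and a bloto peak on the taller WT peak, chr18:77438958-77439831, at 665 bp with 15 and 31 reads and none, and chr2:26467284-26468284, at 613 bp with 72 and 16 reads and a bloto peak on the taller. Nearest to ACTR10 were chr2:70313929-70315129 (500 bp) and chr2:68383944-68385297 (502 bp), marked on the peak of higher fold with 53 and 73 reads. The third, chr3:193788438-193789239 (507 bp), was marked on the peak of lower fold, which had more reads, 36 against 23. Near CEP170/SDCCAG8 in spacing, chr22:32870803-32871225 (260 bp) had 20 and 16 reads and no bloto peak. The other two, chr19:37708646-37709550 (308 bp) and chr17:65362283-65362955 (327 bp), had tall peaks of 66 and 63 reads, each with a bloto peak. At each spacing, pairs with and without a bloto peak on the peak of higher fold occurred side by side.

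Where both lists had a peak, the bloto signal was about as much reduced as at other shared sites. After scaling to equal depth (the bloto library was deeper than that of WT by a factor of 1.07) and subtracting the local background, the bloto signal was 0.53 of WT at DYNC1LI2 and 0.46 at ACTR10. Counting error alone gave 95% intervals of 0.34 to 0.83 and 0.28 to 0.75 (exact, from the share of bloto reads before subtraction), which overlap, so a difference between the 2 promoters was not detectable. Over the 166 shared sites the median was 0.54 with an interquartile range of 0.46 to 0.62. Of these, 76 sites lay below DYNC1LI2 and 40 below ACTR10. Sites entered this set only where a bloto peak was called, so low ratios, above all at short WT peaks, are missing from it. At equal depth the bloto background at ACTR10 was 0.47 of that of WT and at DYNC1LI2 0.70, with a median of 0.79 over shared sites. Without subtraction of the local background the signal ratios were 0.54 at DYNC1LI2 and 0.46 at ACTR10.

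At the 4 WT peaks without a bloto peak, a loss beyond that of the strong peaks could not be told from a signal too low to be called. The weakest bloto peak had a −log10 p of 6.76. This value stands in for the cutoff, which is not given. The weakest WT peak had 5.47, and a cutoff below 6.76 would lower the limits that follow. With the WT local background, reaching that value would have needed 14 and 13 bloto reads at the first and second CEP170/SDCCAG8 peaks, 14 at the weak DYNC1LI2 peak and 13 at the weak ACTR10 peak. These numbers correspond to 0.61, 0.64, 0.85 and 0.68 of the WT signal. A bloto signal of 0.46 or 0.53 of WT, as measured at the strong peaks, would have stayed below all 4 limits. With the lowest bloto background in place of that of WT the limits were 0.51, 0.56, 0.71 and 0.60, of which the first lay under the DYNC1LI2 value. A missing bloto peak at CEP170/SDCCAG8 and at the weak DYNC1LI2 and ACTR10 peaks therefore shows only that the signal did not reach the calling threshold, not that binding was absent.

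**Figure D4:**
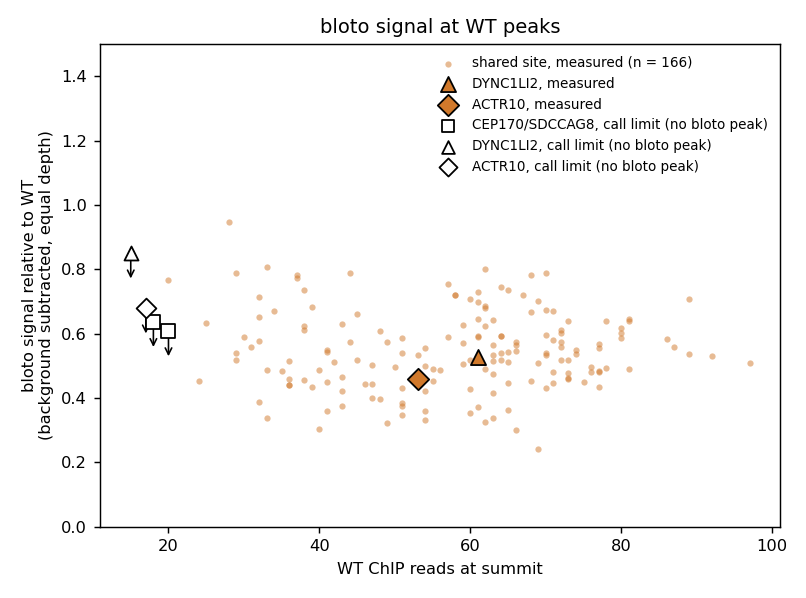
Bloto signal relative to WT (background subtracted, equal depth) against WT ChIP reads at the summit, for the 166 shared sites (dots) and the member peaks (large symbols). Filled symbols are measured ratios, 0.53 at DYNC1LI2 and 0.46 at ACTR10. Open symbols with arrows are the levels, 0.61 to 0.85, needed at the 4 other member peaks to reach the −log10 p of the weakest bloto peak. The actual cutoff is not given and may be lower.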

How the data were processed

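Anti-FLAG ChIP-seq peak lists, 1 per ChIP sample, were used; libraries were single-end reads of 50 bp, per the labels' protocols. The submitters' processing notes name MACS2, SAMtools, BWA, cutadapt 1.4.1 and CASAVA 1.8.2, and the build hg19; the sources used here give no cutoff. Each deposited peak has a fold (a ratio to local background), −log10 p and −log10 q values, and a score. In 809 of 809 peaks of the authors' lists the score was 10 times the −log10 q, cut to a whole number.

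Summit reads were solved from fold, as (pileup + 1)/(background + 1), and the Poisson tail; WT pileups were multiples of 0.856 and bloto pileups whole. Every peak had a single solution. The procedure was tested on simulated lists made with the same formulas. That test checks the solving step and not whether the deposited columns follow the formulas. Relative depth came from the lowest background of each list, assuming equal fragment extension and genome size. WT and bloto peaks were shared at an overlap of 1 bp. Intervals are exact (Clopper-Pearson or Poisson, 95%) and cover counting error only. Coordinates count from 1.

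The members, lists and comparisons were chosen with earlier results of these data known. Named were the member peaks and, for each promoter, the 3 other pairs nearest in spacing. The peaks chr12:14923953-14924195 and chr7:92219480-92219811 were added after their values were seen. Lists of dynein, dynactin, adaptor and centrosome genes were not matched to peaks, because the gene table used is on GRCh38. Python 3.11.15, numpy 2.4.6, pandas 2.3.3, scipy 1.17.1 and matplotlib 3.10.9 were used. Alternatives varied thresholds, overlap, ranking measure and pair distance.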

Additional observations from a re-analysis of the deposited data

How the results depend on the processing

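No paired analysis was possible because there was 1 library per condition, and no replicate could be left out for the same reason. The number of WT peaks at the 3 promoters stayed at 5 or 6, and the peak of higher fold, −log10 p, reads or width had the bloto peak at 2 of 3 promoters. With reciprocal overlap of at least 50%, 1 of the 6 WT peaks had a bloto peak, since the narrow DYNC1LI2 bloto peak no longer counted, and the share over all WT peaks was 16.6%. Ranking pairs by recovered reads, a setting chosen after seeing the data, put the bloto peak on the taller WT peak in 100% of pairs with 1. The settings for background and depth of the bloto to WT ratio and for the call limits were also chosen after seeing the data. Counting error at 15 to 20 reads limits what can be said of the weak peaks.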

Other observations

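Of 121 genes on lists of cytoplasmic dynein, dynactin, dynein adaptors and regulators, and centrosome and centriole, 103 were matched in the table of RefSeq promoter windows used here. The word ACTACANNTCCC occurred in the 250 bases before the start of 8 of these 103, namely CEP170, SDCCAG8, DCTN2, DYNC1H1, DYNC1I2, FBF1, NUMA1 and TRAK2, against 2.05% of all 27305 genes of that table. The counts for the other words picked from the member windows also include the members that supplied them. ACTGCGC occurred at 11 of the 103 genes against 4.36% of all genes, CCCTCGC at 17 against 9.28%, and CGCCTGCGCAGT at 2 against 0.278%. The lists contain the members, and the words were picked from their sequences. The counts therefore cannot show whether the words are more frequent on the lists. They describe sequence and say nothing of ZNF335 binding at these genes.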
